A study of Mus musculus with 2 samples.

Results

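A set of 8 genes that are often found together in macrophages of injured, fibrotic or lipid-laden tissue was followed across the cells of dystrophic muscle: Spp1, Gpnmb, Trem2, Fabp5, Cd36, Lgals3, Lpl and Apoe. They were taken by symbol, 8 of the 24984 gene symbols in each library, and all 8 had UMIs (unique molecular identifiers, each standing for 1 captured RNA molecule) in both libraries. The genes had been picked with earlier results from these same cells in view, so their levels and ratios below are a description and no test was run on them.

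Live mononuclear cells were sorted from hind limb muscles after red cells had been lysed, and droplet single cell RNA-seq libraries were made from them. Ctrl mice were Pax7CreERT2/R26YFP; Yy1+/+; mdx and dKO mice were Pax7CreERT2/R26YFP; Yy1f/f; mdx, so both groups lacked dystrophin and carried the Cre allele and the YFP reporter. Both received tamoxifen on 5 days at 1.5 months of age, and muscles were taken 1 month later. The Cre acts in Pax7-expressing muscle stem cells (MuSCs), so the macrophages of both groups kept an intact Yy1 gene. The comparison addresses how cells around the MuSCs differ when the MuSCs lack Yy1. Cells of 3 mice were pooled per group into 1 library, so no difference here has a replicate check and the spread between mice is not known.

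Spp1 encodes osteopontin, a secreted phosphoprotein that binds CD44 and integrins. Trem2 is a surface receptor for lipids and lipoproteins that signals through the adaptor Tyrobp, and apolipoprotein E, the product of Apoe, is among its ligands. Gpnmb is a transmembrane glycoprotein of lysosomes and the cell surface. Cd36 is a scavenger receptor that takes up fatty acids and oxidised lipoproteins, lipoprotein lipase (Lpl) frees fatty acids from triglycerides, and Fabp5 carries fatty acids inside the cell. Lgals3 encodes galectin-3, a carbohydrate-binding protein abundant in activated macrophages. In muscle, macrophages clear dying fibres and their lipid, and osteopontin and galectin-3 are known from dystrophic muscle.

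All 8 genes are protein-coding and lie apart in the genome (GRCm38, GENCODE M21, matched by symbol): Spp1 (chromosome 5, bases 104435118 to 104441050, plus strand), Cd36 (chromosome 5, bases 17781690 to 17888801, minus strand), Gpnmb (chromosome 6, bases 49036546 to 49070929, plus strand), Trem2 (chromosome 17, bases 48346401 to 48354147, plus strand), Fabp5 (chromosome 3, bases 10012548 to 10016607, plus strand), Lpl (chromosome 8, bases 68880491 to 68907448, plus strand), Apoe (chromosome 7, bases 19696109 to 19699188, minus strand) and Lgals3 (chromosome 14, bases 47367751 to 47386160, plus strand). RefSeq (GRCm38.p6) gave a promoter window for 6 of the 8, all but Fabp5 and Lpl. The 250 bases before the start site are shown for Spp1, Gpnmb and Trem2, whose transcripts were found in the same cells, with matches to the motifs searched in capitals.
Spp1 chr5:104434861-104435110 plus strand: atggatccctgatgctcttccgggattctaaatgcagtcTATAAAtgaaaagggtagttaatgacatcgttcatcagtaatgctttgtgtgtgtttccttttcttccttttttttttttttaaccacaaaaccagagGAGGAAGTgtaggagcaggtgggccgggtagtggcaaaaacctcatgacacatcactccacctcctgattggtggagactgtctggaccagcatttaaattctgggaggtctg
Gpnmb chr6:49036268-49036517 plus strand: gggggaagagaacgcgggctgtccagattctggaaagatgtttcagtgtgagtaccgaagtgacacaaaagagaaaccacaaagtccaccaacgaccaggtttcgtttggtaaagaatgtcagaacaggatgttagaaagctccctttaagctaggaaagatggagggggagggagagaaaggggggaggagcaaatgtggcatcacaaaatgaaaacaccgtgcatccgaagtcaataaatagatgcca
Trem2 chr17:48346151-48346400 plus strand: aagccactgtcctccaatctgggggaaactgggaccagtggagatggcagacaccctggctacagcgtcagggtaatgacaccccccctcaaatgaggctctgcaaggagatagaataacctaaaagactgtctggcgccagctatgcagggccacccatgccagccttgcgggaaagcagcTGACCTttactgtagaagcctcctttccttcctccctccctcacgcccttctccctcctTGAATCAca
Motifs searched on both strands were 6: the E-box CACGTG, the M-box TCATGTGA, the AP-1 motif TGANTCA, the PU.1 motif GAGGAAGT, the nuclear receptor half-site AGGTCA and the TATA motif TATAAA. The Spp1 window held the PU.1 motif 113 to 106 bases before the start site and TATAAA 211 to 206 bases before it. The Trem2 window held an AP-1 match 9 to 3 bases before the start site and a half-site, as TGACCT, 68 to 63 bases before it. The Cd36 window held 1 half-site, and those of Gpnmb, Lgals3 and Apoe held none of the 6 motifs. The RefSeq start sites of Cd36 and Lgals3 lay 52905 and 6109 bases downstream of the GENCODE starts printed here, inside the gene spans. Among 32851 windows of the same length, 2.44% held the PU.1 motif, 12.4% TATAAA, 6.75% the AP-1 motif, 14.0% the half-site, 6.02% the E-box and 0.846% the M-box. These 3 windows thus shared none of the motifs, and a match describes letters only.

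The libraries held 45556596 UMIs in 4527 Ctrl cells and 33815155 in 3483 dKO cells, and 4010 and 3079 cells were kept after filtering. Cells were grouped into 12 classes and the monocyte/macrophage (MO/MP)-like class into 8 subsets, by clustering without the 8 genes and their related genes. All 7 MO/MP-like clusters had raised levels of all 10 macrophage markers, among them Csf1r, Adgre1 and Cd68. They held 1526 Ctrl and 1170 dKO cells, with 14840218 and 9224542 UMIs. Their median depth was 8075 and 6936 UMIs per cell. The 2 libraries shared 7 cell barcodes. Yy1 was counted 369 times in 115 Ctrl and 3 times in 30 dKO MuSC-like cells, a dKO to Ctrl ratio of 0.0303 (0.00622, 0.0893). In MO/MP-like cells the Yy1 ratio was 1.09 (1.02, 1.17). Levels are given as CPM, the usual scaling of the UMIs of a gene by all UMIs of the class, brackets give the lower and upper bound of 95% intervals, and all intervals cover counting error only.

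Across the cell classes, Spp1, Gpnmb and Trem2 were found mainly in MO/MP-like cells, whereas Fabp5, Cd36 and Lpl had a second home in the vessel wall or the stroma. MO/MP-like cells held 98.8% of the Trem2 UMIs of the kept Ctrl cells, 96.3% of Apoe, 95.3% of Gpnmb, 94.6% of Spp1, 92.4% of Lgals3 and 85.8% of Fabp5. For Cd36 and Lpl the share was 66.0% and 64.4%. In dKO the MO/MP-like share was 46.7% for Lpl and between 73.6% (Cd36) and 98.8% (Trem2) for the other 7.

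**Figure D1:**
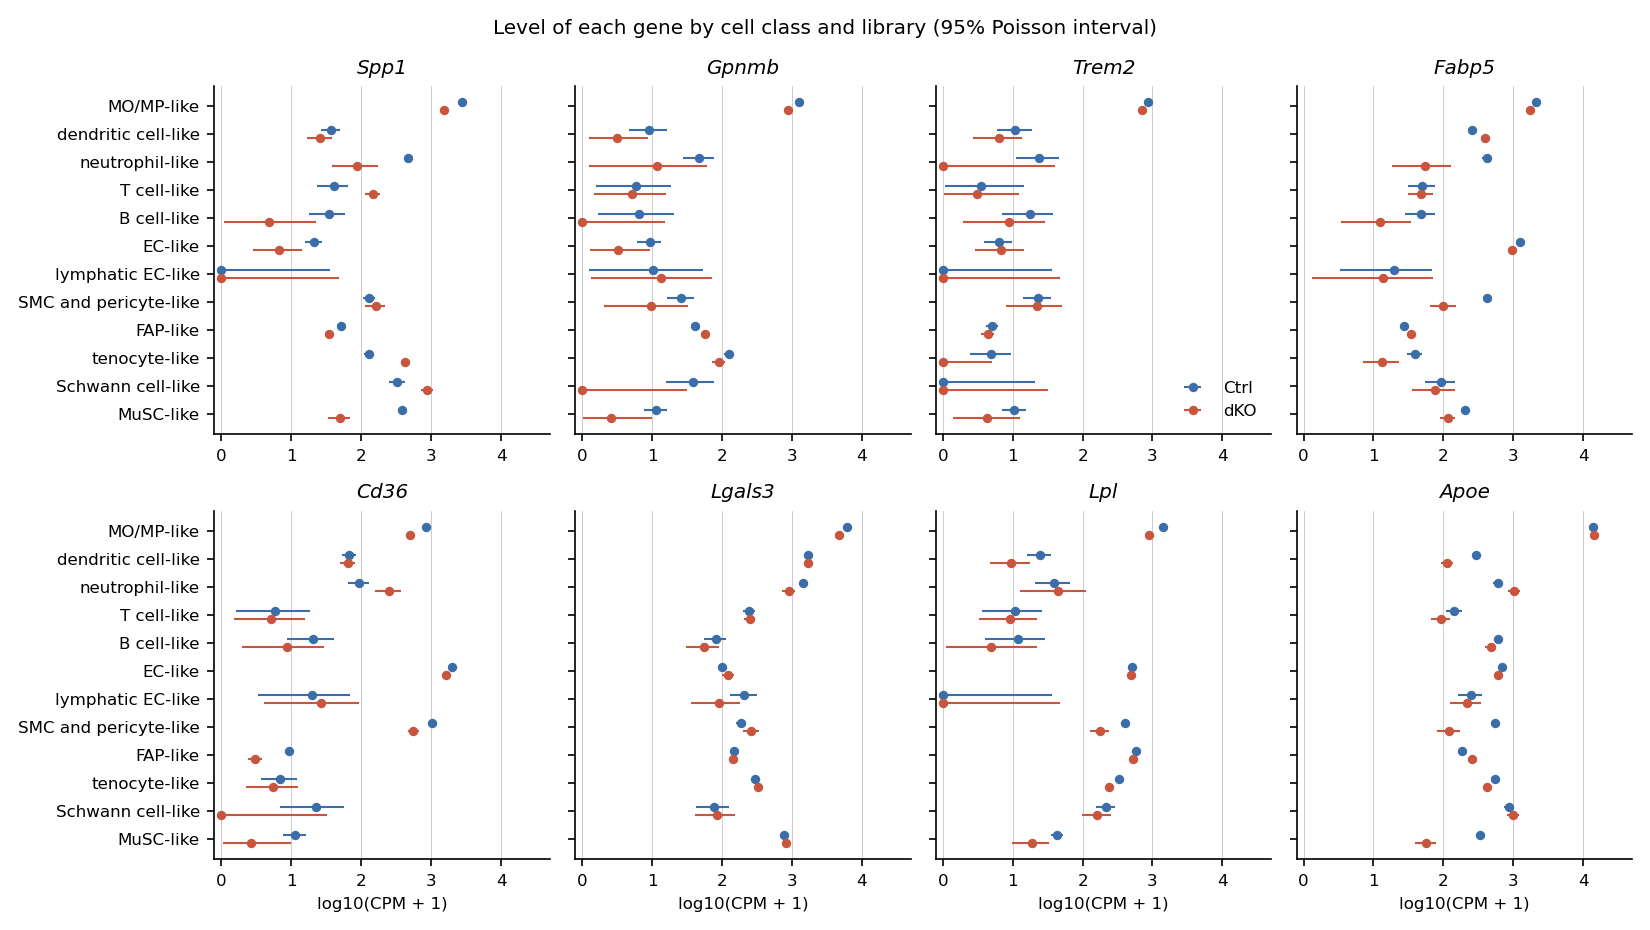
Level of each of the 8 genes in 12 cell classes (rows) as log10(CPM + 1), with Ctrl in blue and dKO in red, 1 library each; points are levels and lines 95% Poisson intervals. Trem2 and Gpnmb stand at 853 and 1286 CPM in Ctrl MO/MP-like cells and at 124 CPM or less in every other class, while Cd36 is highest in EC-like cells at 2000.1 CPM.

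Among the secreted proteins, Spp1 stood at 2740.5 CPM (2714, 2767) in Ctrl and 1547 CPM (1522, 1573) in dKO MO/MP-like cells. The next Ctrl classes were neutrophil-like cells at 473 CPM (403, 551), MuSC-like cells at 377 CPM (352, 403) and Schwann cell-like cells at 327 CPM (249.96, 419.8), of which the last 2 did not differ beyond counting error. Smooth muscle and pericyte-like cells (127 CPM) and tenocyte-like cells (126 CPM) came next with overlapping intervals. From FAP-like cells (fibro/adipogenic progenitors, 50.6 CPM) down to endothelial cell (EC)-like cells (19.9 CPM), each class overlapped the next, and lymphatic EC-like cells had 0 UMIs, which allows up to 3 UMIs or 28.5 CPM. Single cells weighed heavily outside the macrophages. In dKO, 1 cell held 47.1% of the Spp1 UMIs of FAP-like cells, 1 held 60.2% of those of Schwann cell-like cells and 1 held all 37 of those of smooth muscle and pericyte-like cells.

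Lgals3 had its highest level in MO/MP-like cells (6201 CPM in Ctrl and 4739 in dKO), followed in Ctrl by dendritic cell-like cells at 1693 CPM (1618, 1771) and neutrophil-like cells at 1444 CPM (1320.5, 1576). MuSC-like cells carried 775 CPM in Ctrl and 818 in dKO. Apoe stood at 13919.9 CPM (13860, 13980.1) in Ctrl and 14417 CPM (14339.7, 14495) in dKO MO/MP-like cells, and in no other Ctrl class above the 868 CPM of Schwann cell-like cells. Lpl was spread over MO/MP-like (1396 CPM in Ctrl and 898 in dKO), FAP-like (573 CPM in Ctrl and 530.2 in dKO) and EC-like cells (505 CPM in Ctrl and 486 in dKO). In Ctrl, smooth muscle and pericyte-like cells (406 CPM) and tenocyte-like cells (332 CPM) followed.

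Of the membrane proteins, Gpnmb was at 1286 CPM in Ctrl and 873 in dKO in MO/MP-like cells. Tenocyte-like cells were next at 124 CPM in Ctrl and 88.9 in dKO, while the level in cells of the FAP-like class was 40.8 CPM in Ctrl and 55.9 in dKO. Trem2 was at 853 CPM in Ctrl and 700.1 in dKO in MO/MP-like cells, and its second highest Ctrl level was 23.1 CPM in neutrophil-like cells, from 8 UMIs of which 6 came from 1 cell. From there down, each class overlapped the next. Cd36 was higher in EC-like cells (2000.1 CPM in Ctrl and 1611 in dKO) than in MO/MP-like cells (846 CPM in Ctrl and 502 in dKO), and in Ctrl it was at 1018 CPM in smooth muscle and pericyte-like cells. Capillary endothelium is known for fatty acid uptake through CD36. The fatty acid carrier Fabp5 was at 2088 CPM in Ctrl and 1758 in dKO in MO/MP-like cells and at 1263 CPM in Ctrl and 950.0 in dKO in EC-like cells. Every other class had a Fabp5 level below 500 CPM in both libraries.

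Shares of cells were compared after thinning, in which 2000 UMIs were drawn from each cell, and 153 Ctrl and 116 dKO MO/MP-like cells were too shallow for that. A Trem2 UMI was found in 60.7% of Ctrl and 53.3% of dKO MO/MP-like cells, against 1.06% of Ctrl and 0 of 112 dKO T cell-like cells, which should lack it. A count of 0 there allows up to 3 cells, a share of 2.68%. For Spp1 the shares were 49.5% and 38.5%, against 7.45% and 2.68%, and for Gpnmb 42.0% and 36.4%, against 1.06% and 0.893%. Unthinned, MO/MP-like shares were 73.1% and 69.1% for Trem2, 61.9% and 50.7% for Spp1 and 52.3% and 45.4% for Gpnmb. Unthinned T cell-like shares were 0.847% and 0.730%, 11.02% and 5.11%, and 1.69% and 1.46%. The median depth of T cell-like cells was 3218 and 3089 UMIs, and 24 and 25 of them were too shallow. The Spp1 level of T cell-like cells went the other way from their share, 39.4 CPM in Ctrl and 144 in dKO, a ratio of 3.67 (2.11, 6.76), with 37 of 70 dKO UMIs in 1 cell and a ratio of 2.38 (1.20, 5.06) without the top cells. Apoe was found in 40.2% of Ctrl B cell-like cells, and its level there was 4.41% of that in MO/MP-like cells, but 1 cell held 85 of the 222 UMIs. The other 7 genes stood at 0.429% (Gpnmb) to 2.28% (Cd36) of their macrophage level in the same B cell-like cells. The part of free RNA in these low levels was not tested.

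Next, dKO was set against Ctrl within MO/MP-like cells. Of the 8 genes, 7 were lower in dKO with intervals that excluded equality, and Apoe was nearly level. Spp1, Cd36 and Lpl were lower by 1.5-fold or more, 3 of 8, where 4.26% of the 9129 genes with at least 100 UMIs were that much lower and 4.32% that much higher. Since the genes had been picked with these ratios known, nothing is read from that count. The median ratio of all 9129 genes was -0.018 on the log2 scale, and 52.7% of them had a ratio below 1.

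Spp1 went from 2740.5 CPM in Ctrl to 1547 in dKO, a ratio of 0.564 (0.554, 0.575) or -0.82 on the log2 scale, and 2.04% of genes had a lower ratio. Both the number of Spp1 positive cells and the Spp1 UMIs per positive cell were lower. In thinned cells, positive cells carried 8.23 Spp1 UMIs on average in Ctrl and 6.77 in dKO, and cells with at least 5 Spp1 UMIs made up 22.1% and 15.5%. The Spp1 message was unevenly held, the top 10% of cells having 66.7% of the UMIs in Ctrl and 71.0% in dKO. A single dKO cell held 1436 Spp1 UMIs, 10.1% of the dKO total, and without the top cell of each library the ratio was 0.524 (0.514, 0.535).

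Galectin-3 mRNA (Lgals3) had a ratio of 0.764 (0.755, 0.773), with almost the same share of positive cells in both libraries, 89.7% and 88.9%. Lpl went from 1396 to 898 CPM, a ratio of 0.643 (0.627, 0.660). Apoe had a ratio of 1.04 (1.03, 1.04), and 85.8% and 83.7% of thinned cells carried it. The Apoe direction was not stable, since averaging each cell's own CPM gave a log2 ratio of -0.036 against 0.051.

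For the receptors, the Gpnmb ratio was 0.679 (0.661, 0.697) and the Trem2 ratio 0.821 (0.796, 0.846). Cd36 went from 846 to 502 CPM, a ratio of 0.593 (0.574, 0.614), and Fabp5 from 2088 to 1758, a ratio of 0.842 (0.826, 0.858). Cells with 5 or more Fabp5 UMIs made up 21.7% in Ctrl and 22.3% in dKO, while those with 5 or more Cd36 UMIs made up 7.502% in Ctrl and 3.13% in dKO. Averaging each cell's own CPM brought the log2 ratio of Fabp5 to -0.062, and those of Cd36 and Lpl to -0.57 and -0.41, both less than 1.5-fold. Over 11 other settings Spp1 was lower by 1.5-fold or more in 11, Cd36 in 9 and Lpl in 8.

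**Figure D2:**
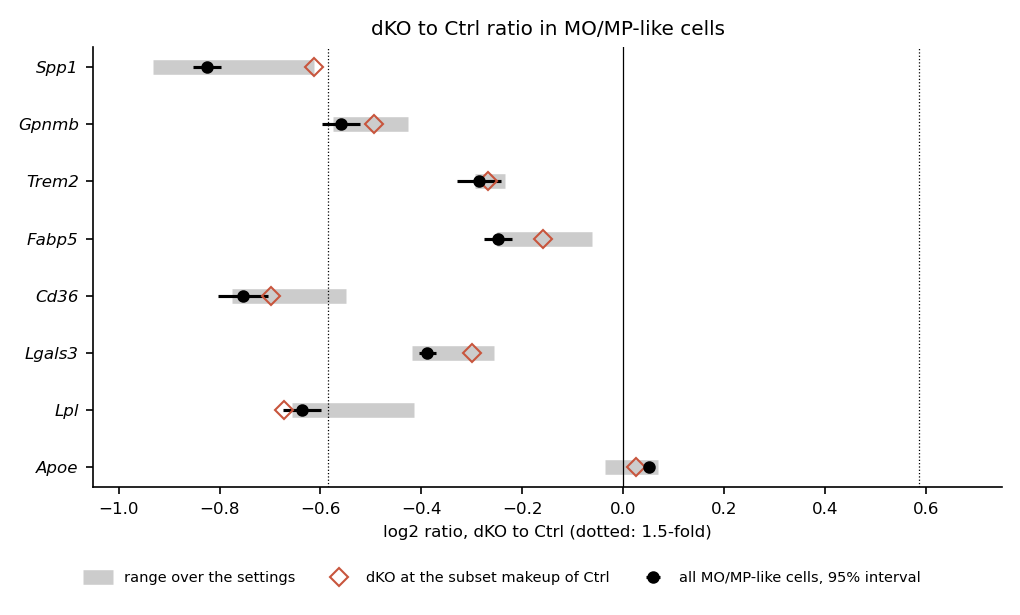
dKO to Ctrl log2 ratio of each gene (rows) in MO/MP-like cells. Black points with lines are the ratio and its 95% counting interval, red diamonds the ratio with dKO recomputed at the subset makeup of Ctrl, grey bars the range over the settings tried, and dotted lines 1.5-fold; Spp1 is lowest at -0.82 and Apoe lies at 0.051.

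Markers of other cells differed inside the MO/MP-like class too. The 7 neutrophil markers, S100a8 and S100a9 among them, summed to 1947 CPM in Ctrl and 125 CPM in dKO, with all 7 detected in both. In Ctrl they were concentrated in the cycling subset, which stood at 13770.4 CPM in Ctrl and 355 in dKO. Without that subset the log2 ratio was -0.84 for Spp1, -0.51 for Gpnmb, -0.28 for Trem2, -0.19 for Fabp5, -0.77 for Cd36, -0.40 for Lgals3 and -0.62 for Lpl. The neutrophil markers were not confined to that subset, as they stood at 751 CPM in Ctrl and 247 in dKO in the monocyte-like subset, and their part in the ratios was not tested. Adipocyte markers summed to 1.15 and 1.41 CPM, with Plin1 and Lep at 0 UMIs in both. EC markers summed to 48.9 and 25.5 CPM and FAP markers to 268 and 183, and the cycling list to 443 and 269. Other lists were higher in dKO, with T cell markers at 197 and 226 CPM, dendritic cell markers at 101 and 139, lymphatic EC markers at 19.8 and 46.2 and MuSC markers at 10.1 and 17.3.

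The MO/MP-like class was then divided to see where the 8 genes were held. Clustering gave 8 subsets, and only those whose leading genes matched fixed markers were named. Monocyte-like cells (282 Ctrl and 227 dKO cells) were led by Vcan and Slpi, an interferon-like subset (52 Ctrl and 65 dKO cells) by Ifit3b and Ifit1bl1, and a resident-like one (28 Ctrl and 36 dKO cells) by Cd209g and Cd209f. A further subset carried the Ear2 and Retnla markers (87 Ctrl and 90 dKO cells). The remaining 4 subsets are called by their leading genes, Ccl8 and Gpr34 (483 Ctrl and 321 dKO cells), Arl5c and Ccrl2 (237 Ctrl and 217 dKO cells), Gask1b and Rnf128 (241 Ctrl and 167 dKO cells), and S100a9 with the histone gene Hist1h1b, the cycling subset (116 Ctrl and 47 dKO cells).

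The 7 genes other than Apoe peaked, or came within counting error of their peak, in the Gask1b and Rnf128 subset of Ctrl. Spp1 stood there at 5734 CPM in Ctrl and 4807 in dKO, Lgals3 at 13016 CPM in Ctrl and 10931 in dKO, Fabp5 at 4587 CPM in Ctrl and 4301 in dKO and Gpnmb at 2384 CPM in Ctrl and 1853 in dKO. This subset made up 15.8% of Ctrl and 14.3% of dKO MO/MP-like cells, and it held 42.3% and 46.0% of the Spp1 UMIs of the class. Within it the Lpl level was 3109 CPM in Ctrl and 1544 in dKO, a ratio of 0.496 (0.473, 0.521), and the Cd36 ratio was 0.587 (0.553, 0.623). Fabp5 at 0.938 (0.909, 0.967) and Trem2 at 0.915 (0.858, 0.974) were nearer to level. The Spp1 ratio was 0.838 (0.815, 0.863), but the cell with 1436 UMIs lay here and held 21.9% of the dKO count, and without the top cells the ratio was 0.687 (0.666, 0.709). Apoe had a ratio of 1.26 (1.23, 1.29) in this subset.

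The Arl5c and Ccrl2 subset had both Apoe and the Spp1, Gpnmb and Trem2 group. Here Spp1 stood at 3604 CPM in Ctrl and 1482 in dKO, a ratio of 0.411 (0.394, 0.429), whereas Gpnmb had a ratio of 0.803 (0.766, 0.843) and Fabp5 of 0.909 (0.873, 0.946). In the Ccl8 and Gpr34 subset, whose Apoe level was 30408 CPM in Ctrl and 30667 in dKO, the Spp1 ratio was 0.462 (0.436, 0.488), that of Gpnmb 0.576 (0.535, 0.619) and that of Trem2 0.776 (0.731, 0.825). Apoe differed by less than counting error there, at 1.01 (0.998, 1.02).

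Cells with Ear2 and Retnla were rich in Lpl and Lgals3 but poor in Spp1. Spp1 stood at 508 CPM in Ctrl and 67.9 in dKO, from 632 and 77 UMIs, a ratio of 0.134 (0.104, 0.170). Lpl was at 2323 CPM in Ctrl and 2334 in dKO, and Lpl, Trem2 and Fabp5 differed by less than counting error, with ratios of 1.00 (0.953, 1.06), 1.05 (0.942, 1.18) and 1.06 (0.981, 1.15). In monocyte-like cells the genes did not share a direction. Fabp5 was higher in dKO at 731 CPM in Ctrl and 1098 in dKO, a ratio of 1.503 (1.40, 1.61), and Spp1 differed by less than counting error, with 1052 CPM in Ctrl and 1012 in dKO, though its ratio was 0.930 (0.867, 0.998) without the top cells. Gpnmb, Trem2, Lpl and Cd36 were lower with ratios of 0.787 (0.671, 0.922), 0.794 (0.683, 0.921), 0.701 (0.642, 0.764) and 0.806 (0.726, 0.894).

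In the interferon-like subset the genes split as well, since Gpnmb at 1.19 (1.07, 1.32) and Fabp5 at 1.33 (1.21, 1.46) were higher in dKO while Cd36 at 0.324 (0.246, 0.424) and Lpl at 0.377 (0.311, 0.455) were at their lowest ratios or close to them. Resident-like cells had few of these transcripts, with 4 and 2 Spp1 UMIs, 3 and 4 of Gpnmb and 13 and 22 of Trem2. Lpl was higher in dKO there, from 15 and 72 UMIs, a ratio of 2.77 (1.57, 5.196). In the cycling subset all 8 were lower in dKO, Gpnmb at 0.349 (0.309, 0.393) and Lpl at 0.356 (0.311, 0.405). Of its dKO Spp1 UMIs, 80.7% came from 1 cell. Over all 8 subsets, Cd36 was the one gene whose ratio was below 1, with its interval, in 8 of 8. The intervals lay below 1 in 6 subsets for Gpnmb, Lgals3 and Lpl, 5 for Spp1 and Trem2, 4 for Fabp5 and 3 for Apoe. Without the top cell of each library these counts were 7 for Cd36, 6 for Spp1, 5 for Gpnmb and 4 for Apoe, and as before for the others, the resident-like Cd36 ratio being 0.645 (0.413, 1.01).

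**Figure D3:**
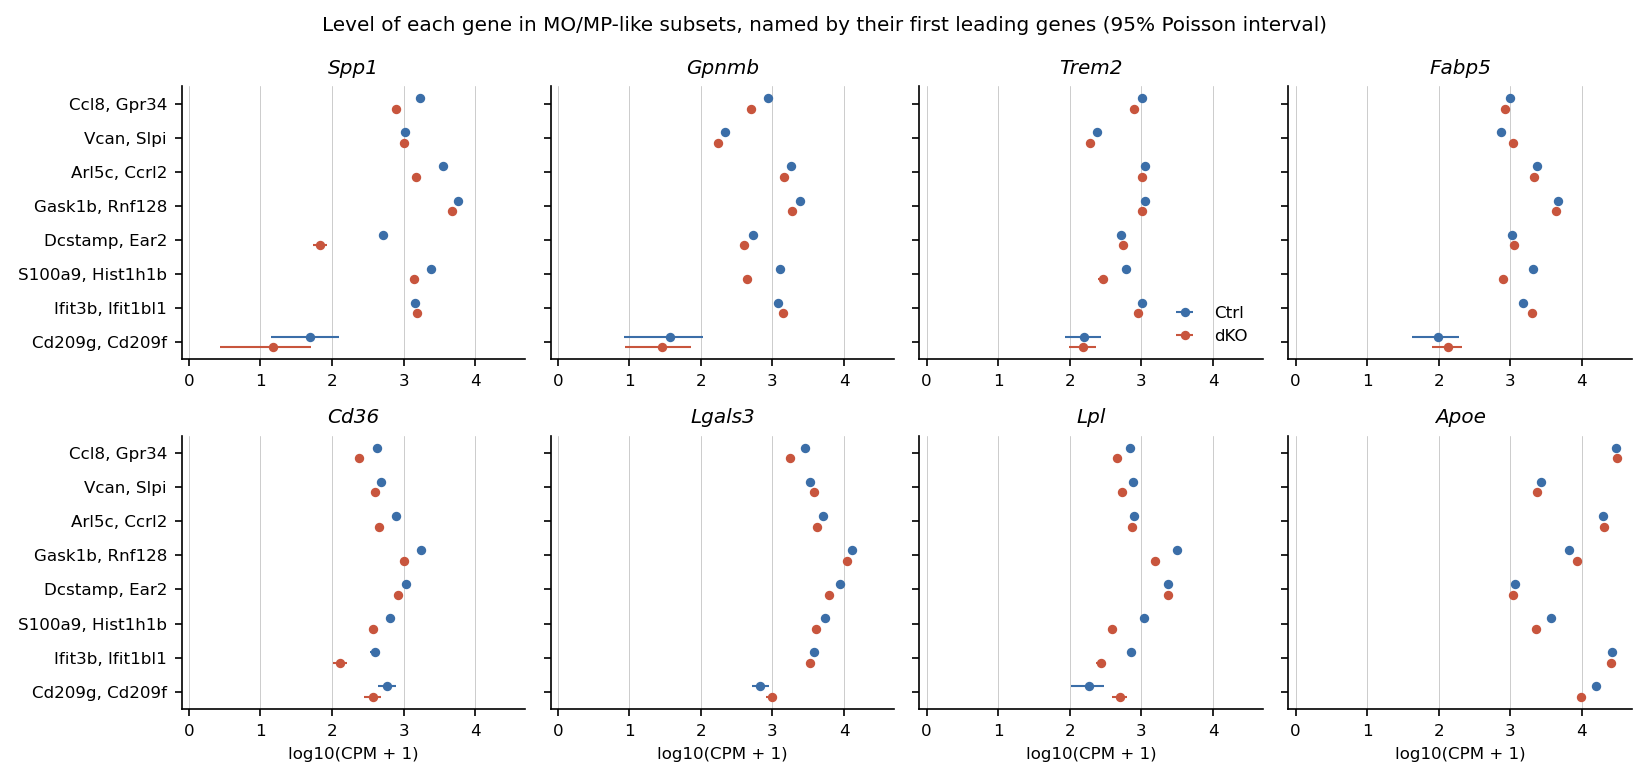
Level of each gene in the 8 MO/MP-like subsets (rows, by leading genes) as log10(CPM + 1), Ctrl in blue and dKO in red, with 95% Poisson intervals. The Gask1b and Rnf128 subset carries Spp1 at 5734 and 4807 CPM, the resident-like Cd209g and Cd209f subset at 48.5 and 14.0.

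The makeup of the class also differed, the Gask1b and Rnf128 subset holding 20.2% of the class UMIs in Ctrl and 14.8% in dKO. Its share of cells differed less, as given above, while its median depth was 10347 UMIs per cell in Ctrl and 6264 in dKO, so makeup here holds both cell numbers and UMIs per cell. To separate makeup from level, the dKO level was recomputed with the subset UMI shares of Ctrl. For Spp1 the log2 ratio went from -0.82 to -0.61, and with makeup alone changed it would have been -0.17. Gpnmb went from -0.56 to -0.49, Trem2 from -0.29 to -0.27, Cd36 from -0.75 to -0.70 and Lgals3 from -0.39 to -0.30. Lpl had a ratio further from 0 at the Ctrl makeup, -0.67 against -0.64. For Fabp5 the makeup part (-0.16) was as large as the part within subsets (-0.16), but only with the subsets shown. These parts were -0.066 and -0.25 at a resolution of 0.2, and -0.24 and -0.087 at 0.8. Without integration they were -0.26 and -0.072, and with all variable genes -0.23 and -0.078. At the Ctrl makeup, a sum over all subsets, 7 of the 8 genes were thus lower in dKO, although Fabp5, Lgals3, Gpnmb and Lpl were higher in single subsets. The size depended on how the subsets were made, the Spp1 value being -0.77 at a resolution of 0.2, -0.53 at 0.8 and -0.42 without integration of the libraries.

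Outside macrophages the ratios differed from gene to gene. MuSC-like cells, in which Yy1 was deleted, carried Spp1 at 377 CPM in Ctrl and 48.5 in dKO, a ratio of 0.129 (0.0862, 0.185) from 870 and 30 UMIs, of which 21 dKO UMIs came from 1 cell, and of 0.0486 (0.0221, 0.0928) without the top cell of each library. A Spp1 UMI was present in 45.2% of 115 Ctrl and 20% of 30 dKO MuSC-like cells, or 19.6% and 6.67% after thinning. In Ctrl MuSC-like cells Spp1 was at 13.8% of its MO/MP-like level, Lgals3 at 12.5%, Fabp5 at 9.75% and Lpl at 3.04%. Trem2 was at 1.12%, Gpnmb at 0.808% and Tyrobp at 0.769%. Tyrobp was not particular to macrophages, at 3938 CPM in Ctrl neutrophil-like against 2423 in MO/MP-like cells. In dKO MuSC-like cells Spp1 was at 3.13% of its MO/MP-like level, Lgals3 at 17.3%, Trem2 at 0.462% and Gpnmb at 0.185%. The part of free macrophage RNA in these levels was not tested. Apoe had a MuSC-like ratio of 0.164 (0.112, 0.231) and Fabp5 of 0.563 (0.433, 0.724), while Lgals3 at 1.06 (0.954, 1.17) differed by less than counting error.

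EC-like cells had ratios of 0.805 (0.759, 0.854) for Cd36 and 0.752 (0.696, 0.812) for Fabp5, and Lpl differed by less than counting error at 0.964 (0.862, 1.08). In FAP-like cells, Gpnmb was higher in dKO, 40.8 CPM in Ctrl and 55.9 in dKO, a ratio of 1.37 (1.24, 1.52), and Apoe had a ratio of 1.39 (1.33, 1.46). Lpl in FAP-like cells was close to level at 0.925 (0.898, 0.953), and Lgals3 differed by less than counting error at 0.949 (0.896, 1.01). Dendritic cell-like cells had 253 CPM in Ctrl and 399 in dKO for Fabp5, a ratio of 1.58 (1.35, 1.85), and their Lgals3 ratio was 1.02 (0.9496, 1.09). Tenocyte-like cells carried more Spp1 in dKO, 126 CPM in Ctrl and 417 in dKO, a ratio of 3.30 (2.77, 3.94), and without the top cell of each library 3.21 (2.57, 4.02). A UMI of Spp1 was found in 9.15% of Ctrl and 10% of dKO tenocyte-like cells after thinning, and in 27.6% and 17.6% before it.

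In single MO/MP-like cells, Spp1, Gpnmb, Fabp5 and Lgals3 were found together, and Apoe went with Trem2 but not with Cd36, Lgals3 or Lpl. Cd36 and Lpl went with each other and, in Ctrl, nearly as much with Lgals3. Correlations are Pearson r of ln(1 + UMIs) over 1373 Ctrl and 1054 dKO cells thinned to 2000 UMIs, given without a p, since cells of a library are not replicates and counts per cell were low. Gpnmb with Fabp5 had the highest r, 0.60 in Ctrl and 0.55 in dKO, followed by Fabp5 with Lgals3, 0.58 in Ctrl and 0.53 in dKO, and Spp1 with Gpnmb, 0.56 in Ctrl and 0.49 in dKO. Trem2 with Gpnmb was at 0.43 in Ctrl and 0.42 in dKO, and Trem2 with Apoe at 0.41 in Ctrl and 0.40 in dKO. Cd36 with Lpl was at 0.49 in Ctrl and 0.36 in dKO. Lgals3 with Lpl was at 0.45 in Ctrl and 0.26 in dKO, and Lgals3 with Cd36 at 0.43 and 0.28. For comparison, Lgals3 with Spp1 was at 0.44 in Ctrl and 0.37 in dKO. Apoe was slightly negative with Cd36 (-0.096 in Ctrl and -0.14 in dKO), Lgals3 (-0.080 in Ctrl and -0.16 in dKO) and Lpl (-0.16 in Ctrl and -0.17 in dKO). All 21 pairs without Apoe were positive in both libraries, with a median of 0.39 in Ctrl and 0.30 in dKO. The Spp1 and Lpl pair was at 0.32 in Ctrl and 0.12 in dKO. Spp1, Gpnmb and Trem2 were detected in the same cell in 26.5% of Ctrl cells (24.2, 28.9) and 19.4% of dKO cells (17.0, 21.9). If the 3 genes were independent, the share would be 12.6% in Ctrl and 7.48% in dKO. The observed shares were 2.10 times that in Ctrl and 2.59 times in dKO.

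**Figure D4:**
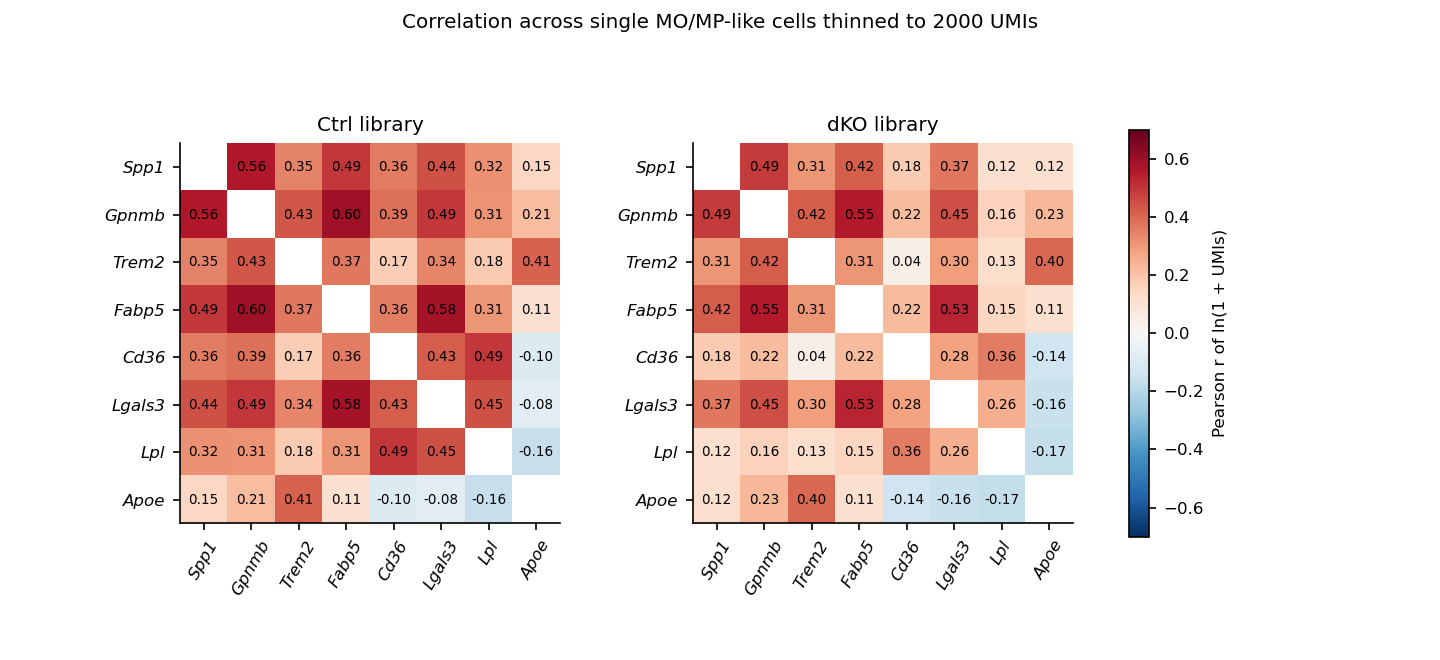
Pearson r between the 8 genes over single MO/MP-like cells thinned to 2000 UMIs, Ctrl left and dKO right, red for positive and blue for negative r. Gpnmb with Fabp5 is the darkest pair (0.60 in Ctrl and 0.55 in dKO) and the Apoe row holds the 3 negative pairs of each library.

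Other genes were ranked by the lower of their 2 library correlations, among 4108 genes with a UMI in at least 5% of the thinned MO/MP-like cells of each library. Ctsd, which encodes a lysosomal protease, and Syngr1 were among the 5 nearest to each of Spp1, Gpnmb and Trem2. For Gpnmb the 5 nearest were Ctsd (0.63 and 0.58), Psap (0.58 and 0.51), Ctsb (0.54 and 0.47), Ftl1 (0.53 and 0.45) and Syngr1 (0.45 and 0.41), with r in Ctrl and dKO in brackets. Ctsb encodes a further lysosomal cathepsin, Psap the precursor of the saposins and Ftl1 ferritin light chain. For Trem2 they were Ctsd (0.48 and 0.44), Ctss (0.46 and 0.44), Ctsb (0.48 and 0.43), Psap (0.41 and 0.37) and Syngr1 (0.35 and 0.35). For Spp1 they were Ctsd (0.52 and 0.41), Syngr1 (0.39 and 0.42), Cd68 (0.36 and 0.35), Ctsl (0.43 and 0.34) and Ftl1 (0.43 and 0.34). In the MO/MP-like class the dKO to Ctrl ratio was 0.747 (0.737, 0.757) for Ctsd, 0.720 (0.712, 0.728) for Psap, 0.708 (0.693, 0.722) for Ctsl and 0.788 (0.744, 0.834) for Syngr1. It was 1.00 (0.973, 1.03) for Cd68 and 1.10 (1.08, 1.11) for Ctss, so not all genes that followed the programme from cell to cell were lower in dKO.

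Genes that act with the 8 were read from 5 lists, which were written with earlier results of these data known and are described by counts. Over all 9129 genes 4.26% were lower and 4.32% higher by 1.5-fold, and 52.7% had a ratio below 1. Of the Trem2 signalling list 8 of 8 genes were measured, 0 passed 1.5-fold in either direction and the median log2 ratio was 0.017, against -0.018 over all genes. The adaptor Tyrobp went from 2423 to 2224 CPM, a ratio of 0.918 (0.902, 0.934). Adam10, which sheds Trem2 from the surface, had a ratio of 0.818 (0.748, 0.895), and the kinase Syk at 1.22 (1.15, 1.30) and the exchange factor Vav1 at 1.23 (1.11, 1.37) had the highest.

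Of 9 osteopontin receptor genes 7 were measured, with 1 lower and 0 higher by 1.5-fold and a median of -0.26. Itga9 was the one that passed with 21.6 and 13.6 CPM, a ratio of 0.626 (0.505, 0.773), and Itgb5 had 0.750 (0.695, 0.809). The integrin gene Itga5 had a ratio of 1.42 (1.29, 1.56) and Cd44 of 1.11 (1.07, 1.15). In macrophages, then, Spp1 was lower in dKO while Cd44 was at 450.0 CPM in Ctrl and 499 in dKO.

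Lipid uptake and storage genes numbered 24, of which 20 were measured, 15 had a ratio below 1 and 2 were lower by 1.5-fold, and the median was -0.17. Angptl4, an inhibitor of lipoprotein lipase, had 181 and 53 UMIs, a ratio of 0.471 (0.340, 0.643), and the fatty acid carrier Fabp3 a ratio of 0.659 (0.544, 0.796). The cholesterol carrier Npc2 had a ratio of 1.27 (1.24, 1.29).

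The list of lipid-associated macrophage genes held 29, all measured, of which 25 had a ratio below 1, 6 were lower and 0 higher by 1.5-fold, with a median of -0.29. The elastase gene Mmp12 went from 639 to 304 CPM, a ratio of 0.475 (0.456, 0.496). Vegfa at 1.26 (1.14, 1.40) and Csf1 (1.21) had the highest ratios, that of Csf1 within counting error of 1. Ctsb, Ctsd, Ctsl, Syngr1 and Ftl1, named above, are on this list too. Transcription factors known to act on such genes numbered 16, all were measured, 0 passed 1.5-fold, and the median was 0.079. The lowest were the oxysterol receptor Nr1h3 at 0.741 (0.636, 0.860) and Bhlhe41 at 0.814 (0.688, 0.960), and the highest Ppard at 1.251 (1.04, 1.504) and Hif1a at 1.24 (1.17, 1.32).

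**Figure D5:**
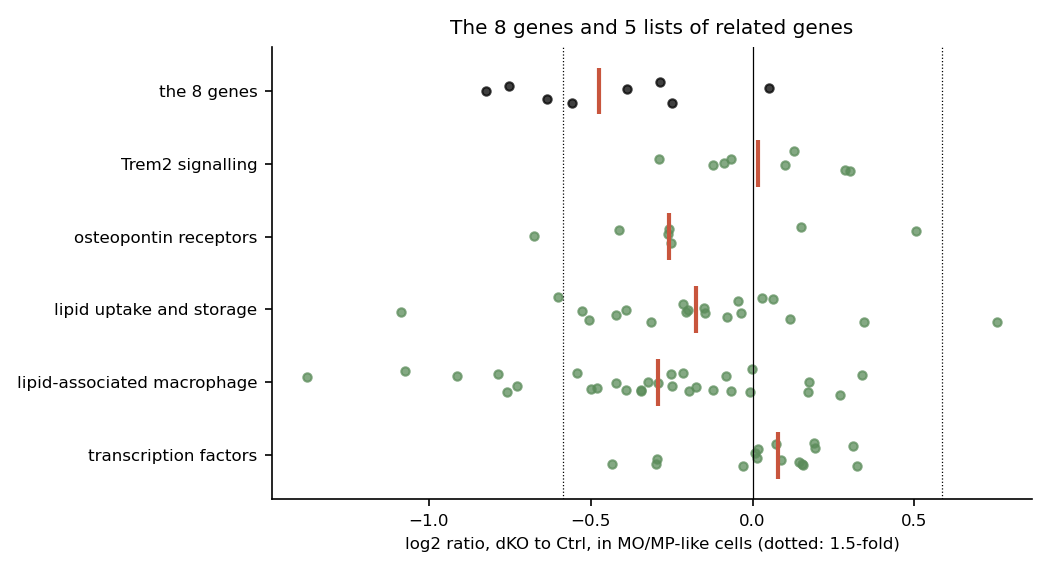
dKO to Ctrl log2 ratio in MO/MP-like cells for the 8 genes (black) and the measured genes of 5 related lists (green), 1 point a gene; red bars are list medians and dotted lines 1.5-fold. The lipid-associated macrophage list has its median at -0.29, the transcription factor list at 0.079.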

How the data were processed

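The deposited files hold raw UMI counts, as the authors' cell calling left them, by gene and barcode. Their processing notes name Cell Ranger 7.0.0, Seurat 4.3.0 and mm10, whereas the file headers name software version 3.0.2. The 8 genes and 5 related lists were chosen with earlier results of these data known. Barcodes with at least 500 genes were kept, 4335 and 3329, which are the cell numbers the study gives after filtering and doublet removal, so whether doublets had been removed before deposit is unclear. The 7.5% of cells with the highest Scrublet scores (scanpy 1.11.5) were removed as doublets, because the threshold of Scrublet itself called 4 and 14 cells. Libraries were integrated and clustered in Seurat 5.3.0 (R 4.3.3; 2000 variable genes, 40 dimensions, resolution 0.8; subsets 30 dimensions, 0.4), leaving out the 8 genes and their lists. Clusters were named from marker genes. Counts were summed per class, subset and library. Poisson, binomial and conditional ratio intervals (exact, 95%) were checked on simulated counts drawn independently, as the intervals assume. That check does not cover the clumping of UMIs in single cells, so the intervals can be too narrow for these data. With 1 library per group no test was possible. Genes with at least 100 UMIs over both libraries in MO/MP-like cells entered the comparison over all genes and the lists. Ratios by class and by subset had no such floor. From each list the 2 highest and 2 lowest ratios are named, with Tyrobp and Cd44, and for Spp1, Gpnmb and Trem2 the 5 genes nearest by correlation, except that some of these results are not reported here. The files hold 0 mitochondrially encoded genes.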

Additional observations from a re-analysis of the deposited data

Results flagged for a closer look

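Some dKO to Ctrl ratios had the opposite direction to the ratio of the same gene in MO/MP-like cells, with both counting intervals clear of 1 and at least 100 UMIs over both libraries. These differences between classes and subsets were not tested, since each library is 1 sample, and many ratios were examined. Spp1 was higher in dKO in Schwann cell-like cells, 2.65 (1.92, 3.71), and in tenocyte-like cells, 3.30 (2.77, 3.94), and without the top cell of each library the values were 1.46 (0.930, 2.27) and 3.21 (2.57, 4.02). Gpnmb was higher in FAP-like cells, 1.37 (1.24, 1.52). Fabp5 was higher in FAP-like cells, 1.24 (1.09, 1.41), with 1.06 (0.921, 1.21) without the top cells, and in dendritic cell-like cells, 1.58 (1.35, 1.85). Lgals3 had a ratio of 1.40 (1.02, 1.90) in smooth muscle and pericyte-like cells, from 154 and 60 UMIs, and 1.17 (0.657, 1.98) without the top cells. The Schwann cell-like Spp1, FAP-like Fabp5 and smooth muscle Lgals3 intervals thus held 1 once the top cells were left out.

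Apoe was higher in dKO in MO/MP-like cells by little, and that direction turned in 3 of 11 other settings. It was lower in dKO in 7 classes, with ratios of 0.164 (0.112, 0.231) in MuSC-like, 0.222 (0.146, 0.326) in smooth muscle and pericyte-like, 0.393 (0.312, 0.490) in dendritic cell-like, 0.636 (0.420, 0.957) in T cell-like, 0.775 (0.684, 0.876) in tenocyte-like, 0.776 (0.617, 0.971) in B cell-like and 0.861 (0.780, 0.9496) in EC-like cells. Without the top cells the B cell-like value was 1.08 (0.828, 1.40).

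Within the MO/MP-like class, Fabp5 was higher in the monocyte-like at 1.503 (1.40, 1.61) and interferon-like subsets at 1.33 (1.21, 1.46), Gpnmb in the interferon-like subset at 1.19 (1.07, 1.32), and Lgals3 in the monocyte-like at 1.13 (1.09, 1.17) and resident-like subsets at 1.44 (1.05, 2.001). Apoe was lower in the monocyte-like at 0.879 (0.842, 0.918), cycling at 0.619 (0.586, 0.654) and resident-like subsets at 0.629 (0.583, 0.679). With fewer than 100 UMIs, Spp1 in T cell-like cells, 3.67 (2.11, 6.76), Cd36 in neutrophil-like cells, 2.69 (1.505, 4.75), and Lpl in the resident-like subset, 2.77 (1.57, 5.196), were also higher in dKO. For Cd36, 22 of the 23 dKO UMIs were in 1 cell, and without the top cells the ratio turned to 0.159 (0.00386, 0.969).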

How the results depend on the processing

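The log2 ratios of Spp1, Gpnmb, Trem2, Fabp5, Cd36, Lgals3 and Lpl in MO/MP-like cells were negative under all 11 other settings tried, whereas Apoe turned direction in 3 of them. The values given next are log2 ratios that lay outside the counting interval of the reported one. With each cell's own CPM averaged they were Spp1 -0.61, Gpnmb -0.43, Trem2 -0.24, Fabp5 -0.062, Cd36 -0.57, Lgals3 -0.27, Lpl -0.41 and Apoe -0.036. With cells thinned to 2000 UMIs they were Spp1 -0.64, Gpnmb -0.50, Fabp5 -0.079, Cd36 -0.55, Lgals3 -0.26, Lpl -0.47 and Apoe -0.034. With no doublets removed they were Gpnmb -0.52, Fabp5 -0.21, Cd36 -0.70, Lgals3 -0.34, Lpl -0.58 and Apoe 0.065. With at least 1000 genes per cell they were Spp1 -0.78, Gpnmb -0.50, Cd36 -0.69 and Lgals3 -0.35, and with at least 200, where the class held 1247 Ctrl and 1023 dKO cells, Gpnmb -0.47, Fabp5 -0.22, Lgals3 -0.42 and Apoe 0.037. Scaling to the median ratio gave Lgals3 -0.37 and Apoe 0.069, and leaving out the top cells Spp1 -0.93. Leaving out the cycling subset, a setting chosen after seeing the data, gave Gpnmb -0.51, Fabp5 -0.19 and Apoe -0.0047. The cause of these moves was not tested. Clustering without integration, with all variable genes or at a resolution of 0.4 moved none of the 8 outside its interval. Lpl was lower by less than 1.5-fold in 3 of the 11 settings (own CPM, thinning and no doublets removed) and Cd36 in 2 (own CPM and thinning). At the subset makeup of Ctrl, the median log2 ratio of the 8 genes was -0.40, and it was -0.44 and -0.30 at resolutions of 0.2 and 0.8, -0.33 without integration and -0.29 with all variable genes. Apoe there turned from 0.025 to -0.046 at 0.2, -0.00970 without integration and -0.022 with all variable genes. At the smaller fold tried the related lists had 23 of 80 genes lower and 5 higher in dKO, against 9 and 1, where 13.2% of all genes were that much lower and 13.6% higher. No paired analysis was possible because each group had 1 library. Depth limits the small classes, such as 14 dKO lymphatic EC-like cells, and the resident-like subset.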

Other observations

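Receptors for osteopontin were measured outside macrophages as well. Cd44, a receptor of many leukocytes and stromal cells, was at 258 CPM in Ctrl and 317 in dKO in FAP-like cells, a ratio of 1.23 (1.18, 1.28), and at 315 CPM in Ctrl and 355 in dKO in MuSC-like cells, 1.13 (0.966, 1.31). Its highest level was 917 CPM in Ctrl and 1652 in dKO in neutrophil-like cells. In EC-like cells Cd44 had 257 and 28 UMIs, a ratio of 0.333 (0.217, 0.492). Itga9 was highest in lymphatic EC-like cells at 266 CPM in Ctrl and 329 in dKO, where Spp1 had 0 UMIs, and in FAP-like cells its ratio was 1.38 (1.16, 1.64) against 0.626 (0.505, 0.773) in MO/MP-like cells, a difference that was not tested. Itga5 had a ratio of 1.42 (1.16, 1.73) in EC-like and 1.14 (1.07, 1.21) in FAP-like cells. No replicate stands behind these values.

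Barcodes with fewer than 500 genes, which were left out, held 53 of 46508 Ctrl and 36 of 17260 dKO Spp1 UMIs.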
